A study of Notamacropus eugenii with 7 samples.

Results

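Of the 346 miRNAs named in the deposited table of tammar wallaby milk and serum, 7 with known roles in blood vessels and connective tissue are described here. These were miR-126, miR-143, miR-130a, miR-221, miR-222a, miR-199b and miR-214. They were taken by name, as a selection of the miRNAs known from endothelium, smooth muscle and fibroblasts, and no threshold on their values was used.

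Small RNA was sequenced from milk of lactating females at days 35 and 75 (phase 2A), 120 and 175 (phase 2B) and 250 (phase 3) of lactation, and from maternal blood serum at days 120 and 175, with 1 column of values, treated here as 1 library, for each. The series record also mentions duplicates for day 175, and whether the day 175 values combine them is not known. The days are those of the labels, and the study's text gives in places slightly earlier days for those labelled 75 and 120. The animals were colony wallabies, milked under anaesthesia after oxytocin to release the milk, and their ages are not given in the sources used here. Milk of several females was pooled for each day, and serum came from fewer females, of those also milked. Fat and cells were spun out of the milk before extraction. The study's methods name a different RNA kit for serum, while the labels name the milk kit for every sample, and if the kits differed, kit and fluid cannot be told apart. Neither fluid is a tissue. Shares of reads in it cannot tell fewer cells of a type from less RNA per cell, nor name the cells that released a miRNA.

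MicroRNAs are short RNAs that pair with messenger RNAs, mainly through the bases near their 5′ end, and lower the output of protein. MiR-126 is made from an intron of EGFL7 in endothelial cells, where it favours the response to vascular growth factor, and it is also carried by platelets. MiR-143 and its partner miR-145 are cut from the same transcript and hold smooth muscle in its contractile state. MiR-130a promotes vessel formation by lowering the homeobox factors GAX and HOXA5. MiR-221 and miR-222 also come from a shared transcript, restrain the receptor KIT in endothelium and lower the cell cycle inhibitor p27. MiR-214 and the miR-199 family are cut from transcripts antisense to dynamin genes and are typical of fibroblasts and other mesenchymal cells.

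Each deposited value is a miRNA's share, in percent, of the annotated miRNA reads in its library, given to 3 decimals. A value listed at 0 lies under 0.0005%, and an empty entry means that the miRNA was absent. The depth is unknown from these values, and the bounds given with a ratio cover the rounding alone. All listed shares summed to between 95.8% and 99.6% of a library, over 48 to 86 listed miRNAs in milk and 74 or 75 in serum. MiR-191 held between 9.66% and 43.8% of the milk libraries, and miR-10b held 69.2% and 55.4% of the serum libraries of days 120 and 175. The shares of other miRNAs move against these.

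Of the 7 miRNAs, 5 were above 0 in at least 6 of the 7 libraries. The fibroblast miRNAs were at the limit of detection. MiR-199b was listed at 0 in milk of day 75 and absent from the other 6 libraries. MiR-214 was listed at 0 in serum of day 175 and absent from the other 6. Together the 7 held 0.966%, 1.46%, 1.25%, 5.45% and 3.66% of milk miRNA reads on the successive days, and 1.78% and 1.42% of the serum reads of days 120 and 175. Most of this was miR-143, with between 85.1% and 95.1% of the sum in milk and 73.5% and 70.0% in serum. Without it the sum lay between 0.072% and 0.547% in milk and was 0.471% and 0.424% in serum.

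MiR-143, known from smooth muscle, was the most abundant of the 7 in every library. Milk of days 35, 75, 120, 175 and 250 held 0.865%, 1.39%, 1.14%, 5.07% and 3.12%. Serum of days 120 and 175 held 1.31% and 0.991%. The 2 latest milk libraries lay well above serum, day 35 lay below both serum values, day 75 slightly above both and day 120 between them. The share of day 175 was 4.43-fold that of day 120, and the share of day 250 was 3.60-fold that of day 35. Its rank among the miRNAs of a library went from 12 in milk of day 35 to 7 and 8 in the 2 latest, and was 8 in both serum libraries.

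For miR-130a, the vessel-forming miRNA, the shares in milk of days 35, 75, 120, 175 and 250 were 0.066%, 0.063%, 0.096%, 0.303% and 0.510%. Those in serum of days 120 and 175 were 0.290% and 0.249%. The 3 earlier milk libraries were below both serum values and the 2 later ones above them. The share of day 250 was 7.73-fold that of day 35 (7.66 to 7.79 within rounding), and the rank went from 32 to 16. Among the 5 detected miRNAs this was the only one with its highest milk share on day 250.

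MiR-221 was listed at 0 in milk of day 35, and the 4 later milk libraries held 0.006%, 0.008%, 0.066% and 0.028%. Serum held 0.143% on day 120 and 0.117% on day 175. Both serum values were above all 5 milk values. Within milk the share of day 175 was 8.25-fold that of day 120 (7.71 to 8.87 within rounding), and that of day 250 was 2.36-fold lower again (2.30 to 2.42).

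MiR-126, the endothelial miRNA, was absent from milk of day 35, and the 4 later milk libraries held 0.001%, 0.002%, 0.007% and 0.006%. Serum held 0.034% on day 120 and 0.050% on day 175. Both serum values were above all milk values. Milk was 17.0-fold lower than serum on day 120 (13.4 to 23.0 within rounding) and 7.14-fold lower on day 175 (6.60 to 7.77). Its rank was 34 and 30 in serum and between 45 and 62 in the milk libraries that held it.

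MiR-222a differed from its partner miR-221 in early milk. The milk shares were 0.035% on day 35, 0.002% on each of days 75, 120 and 175, and 0.003% on day 250, and the serum shares were 0.004% and 0.008%. The day 35 library stood above all 6 others, and the 4 later milk libraries stood below both serum libraries, the nearest by no more than the rounding. The share of day 75 was 17.5-fold lower than that of day 35 (13.8 to 23.7 within rounding). Between these days 23.7% of the 38 miRNAs of at least 0.005% on both were over 2-fold lower and 15.8% over 2-fold higher, a set that leaves out miR-222a and other miRNAs that were below 0.005% on day 75.

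**Figure D1:**
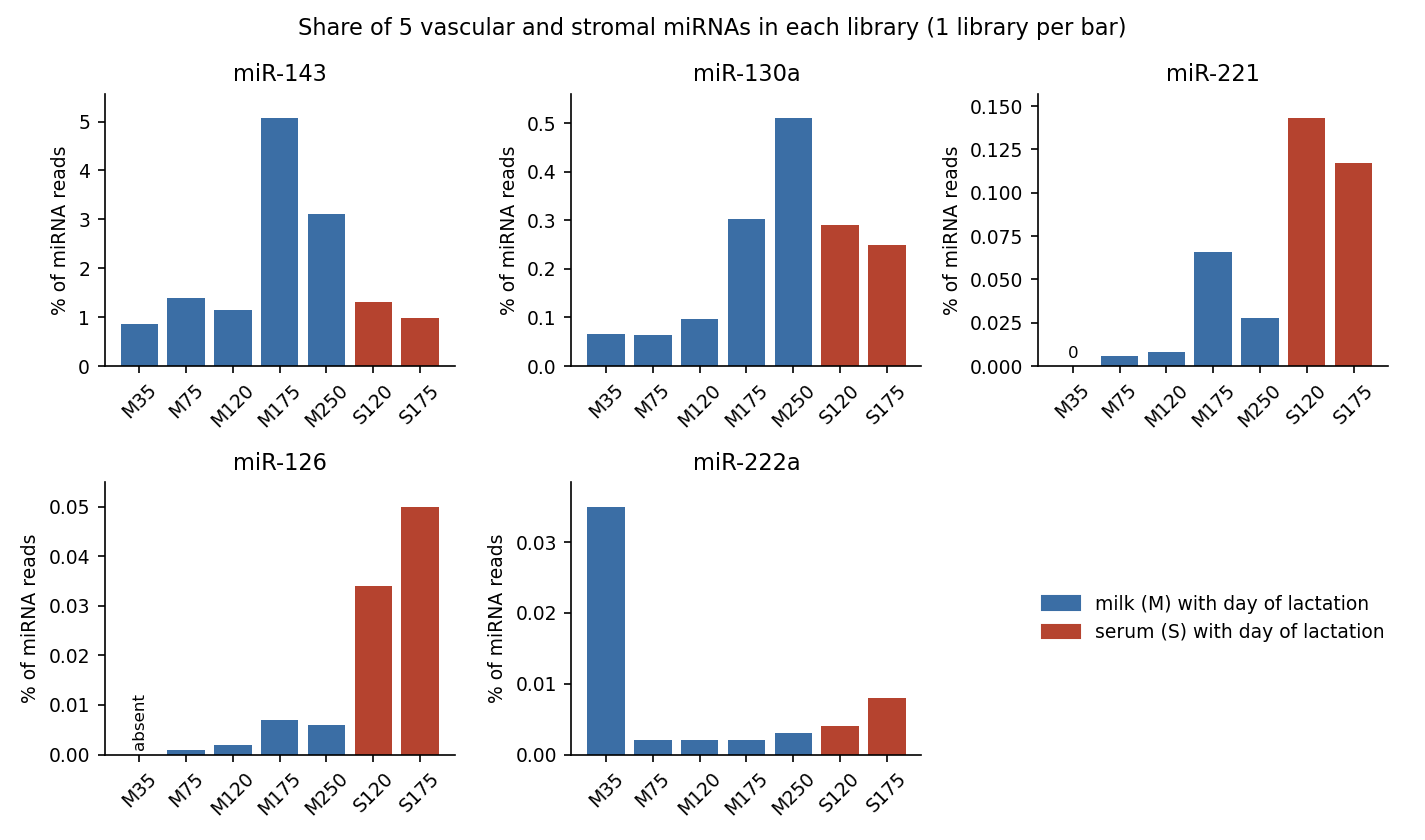
Percent of miRNA reads (vertical axis, linear, its own scale in each panel) of the 5 miRNAs above 0, in 5 milk (M) and 2 serum (S) libraries named by day of lactation, with 1 library per bar. MiR-143 and miR-130a are highest in late milk, miR-221 and miR-126 in serum, and miR-222a in milk of day 35.

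With 1 library a day no test of a step between 2 days was possible, and a trend over the 5 milk days was not tested. Each step was set against those of all miRNAs of at least 0.005% on both days. From day 120 to day 175 in milk, miR-143, miR-130a and miR-221, the described miRNAs at that level, were all over 2-fold higher. Of the 46 miRNAs 43.5% were over 2-fold higher and 8.70% over 2-fold lower. The log2 ratio was 2.15 for miR-143, 1.66 for miR-130a and 3.04 for miR-221, against a median of 0.63. MiR-126, below that level on day 120, had 1.81, and miR-222a had the same share on both days. Taken on log2 of percent plus 0.001 without miR-10b and miR-191 in the total, the log2 ratio was 1.43 for miR-143, 0.94 for miR-130a, 2.26 for miR-221, 0.92 for miR-126 and -0.53 for miR-222a, with a median of -0.03.

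From day 75 to day 120 none of miR-143, miR-130a and miR-221 was past 2-fold, a fold that 26.7% of 45 miRNAs exceeded upward and 20.0% downward. Without miR-10b and miR-191 in the total, miR-130a was just past it with a log2 ratio of 1.02, miR-143 went from -0.28 to 0.14, and the median was 0.37. From day 175 to day 250 the log2 ratio was -0.70 for miR-143, -1.24 for miR-221 and -0.22 for miR-126, against a median of -0.68 over 48 miRNAs. MiR-130a went the other way, with 0.75. Of the 48 miRNAs 10.4% were over 2-fold higher and 41.7% over 2-fold lower on day 250, and of the described miRNAs at that level only miR-221 was past 2-fold. On the centred log ratio, which sets each value against the mean of the miRNAs present throughout, the median of this step was 0.39, and miR-143 had 0.37, miR-221 -0.14, miR-126 0.87, miR-130a 1.82 and miR-222a 1.48. The lower share of miR-221 on day 250 was thus within 2-fold on that scale.

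From day 35 to day 250 the log2 ratio was 1.85 for miR-143 and 2.95 for miR-130a, against a median of -0.54 over 37 miRNAs. Of these 27.0% were over 2-fold higher and 40.5% over 2-fold lower. MiR-222a had -3.54. Of the 5 detected miRNAs 3 were highest in milk of day 175, as were 40.6% of the 64 miRNAs that reached 0.005% in a milk library.

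In serum, from day 120 to day 175, the log2 ratio was -0.40 for miR-143, -0.22 for miR-130a, -0.29 for miR-221 and 0.56 for miR-126, against a median of 0.15 over 48 miRNAs. MiR-143, miR-130a and miR-221 were thus higher on day 175 in milk and lower in serum, while miR-126 was higher in both. MiR-222a went from 0.004% to 0.008%. None of the other 4 was past 2-fold, a fold that 12.5% of the 48 exceeded upward and 16.7% downward.

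**Figure D2:**
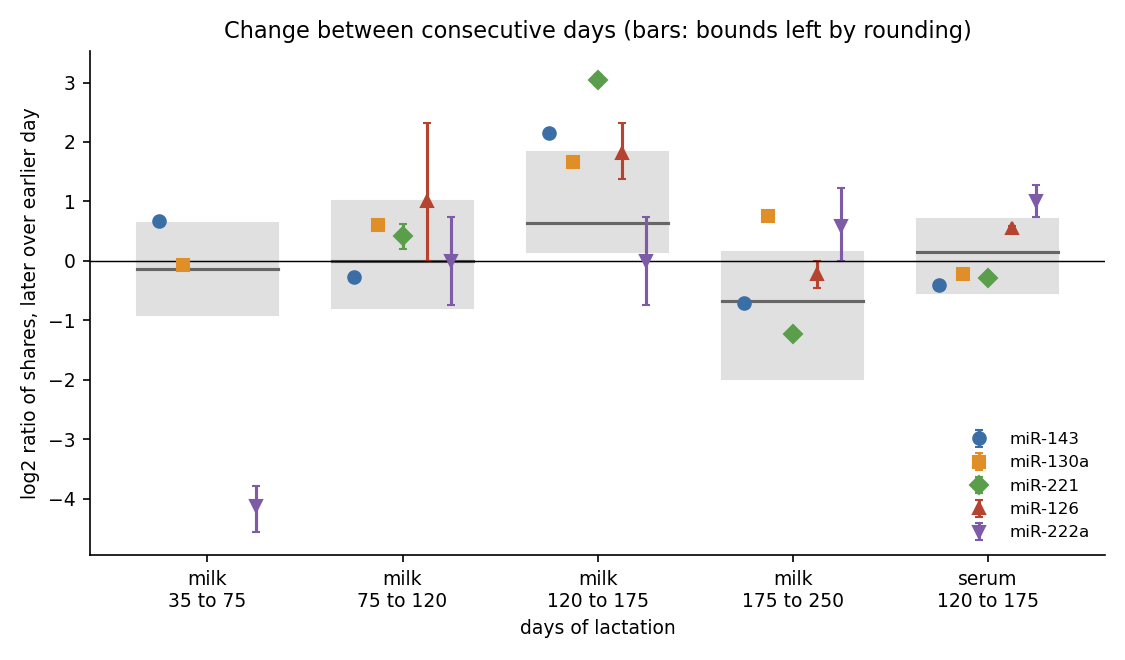
Log2 ratio of the share on the later over the earlier day (vertical axis) for 4 steps in milk and 1 in serum. Points are the 5 miRNAs with the bounds left by rounding, and grey boxes span the quartiles of all miRNAs of at least 0.005% on both days, with their median as a line. In milk from day 120 to day 175 miR-221 is highest, at 3.04, and miR-222a lies below the median of 0.63.

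Milk and serum were compared first on each day. On day 120, miR-130a was 3.02-fold lower in milk, miR-221 17.9-fold lower (16.8 to 19.1 within rounding) and miR-143 1.14-fold lower. Of 43 miRNAs 30.2% were over 2-fold lower in milk and 34.9% over 2-fold higher. On day 175, miR-143 was 5.11-fold higher in milk, miR-130a 1.22-fold higher and miR-221 1.77-fold lower (1.75 to 1.79). Of 46 miRNAs 54.3% were over 2-fold higher in milk and 17.4% over 2-fold lower.

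The sizes of these ratios depend on the total, in which miR-10b weighs most in serum. On log2 of percent plus 0.001 the milk to serum ratio of day 120 was -0.19 for miR-143, -1.58 for miR-130a, -4.00 for miR-221 and -3.54 for miR-126, and without miR-10b in the total -1.84, -3.23, -5.65 and -5.18. On day 175 it was 2.35, 0.28, -0.82 and -2.67 in the same order, and -0.82 for miR-130a, 1.24 for miR-143, -1.92 for miR-221 and -3.77 for miR-126 without miR-10b. MiR-130a changed side on day 175, and the other 3 kept theirs on both days.

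Across all miRNAs the fluids were then compared with limma, a linear model with a shared estimate of the spread, on log2 of percent plus 0.001. Differences on this scale understate those of miRNAs near 0.001%. A miRNA entered a fit with at least 0.001% in at least 2 of its libraries, which miR-199b and miR-214 did not reach. In the fit of all 5 milk and 2 serum libraries miR-126 was lower in milk, with a log2 difference of -3.72 and a standard error of 0.91 (limma adjusted p = 0.018). With all libraries kept, this difference was -1.99 with 0.01 added instead of 0.001. It was -5.29 without both miR-10b and miR-191 in the total. MiR-126 was lower in 5 of 5 milk libraries than in both serum libraries. It was the 1 called among the 5, where 18.8% of the 85 miRNAs tested were called in all, 7.06% as higher in serum and 11.8% as higher in milk. Without serum of day 120 the log2 difference was -3.99 (limma adjusted p = 0.097), and without serum of day 175 it was -3.45 (limma adjusted p = 0.19), so the size was kept and the call was not. The lone serum library is then assumed to vary like milk.

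MiR-221 had a similar log2 difference of -3.65 with a larger standard error of 1.42 (limma adjusted p = 0.11). Without milk of day 35 it had -2.80, and without milk of day 175 it had -4.32. It passed when miR-10b was taken out of the total (limma adjusted p = 0.031). That change moved the median log2 difference of all miRNAs tested from 0.29 to -0.67, and 16 of 84 were then called as higher in serum. Over the alternatives that keep all libraries the limma adjusted p of miR-221 ranged from 0.020 to 0.15, and its log2 difference from -5.15 to -2.53. The other 3 did not pass. The log2 difference was -0.89 for miR-130a, -0.36 for miR-222a and 0.70 for miR-143, with standard errors of 0.95, 1.06 and 0.82 and limma adjusted p of 0.61, 0.80 and 0.62. That of miR-143 changed sign when miR-10b was taken out of the total, to -0.69. In this fit milk of different days stands in for replicates, so its spread holds the change over lactation.

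An exact permutation test of the 5 milk against the 2 serum libraries has 21 arrangements. MiR-126 reached the smallest two-sided exact p that they allow, 0.048, which became 0.19 after Benjamini-Hochberg adjustment over the 85 miRNAs. MiR-221 had an exact p of 0.14, and 0.048 with any change of the total, and the other 3 had between 0.43 and 0.81. Both serum libraries were above all 5 milk libraries for 15.3% of the 85 miRNAs, among them miR-126 and miR-221. All milk libraries were above both serum libraries for 16.5%, with none of the 5.

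The fit restricted to days 120 and 175, with 2 libraries of each fluid, called 0 of the 5 miRNAs, with 1 at an unadjusted p under 0.05, as had 22 of all 75 miRNAs. It called 18.7% of 75 miRNAs, 14.7% as higher in milk and 4.0% as higher in serum. MiR-126 had -3.11 with a standard error of 0.86 (limma adjusted p = 0.054), and miR-221 had -2.41 with a standard error of 1.12 (limma adjusted p = 0.23). Without milk of day 120 miR-126 had -2.40 and miR-221 had -0.96. Without milk of day 175 miR-126 had -3.82 and miR-221 had -3.86. MiR-126 passed in 5 of the 8 alternatives that keep all 4 libraries, with limma adjusted p between 0.00046 and 0.11. Fitting day as a replicate block, 0 of the 75 passed, 20 had an unadjusted p under 0.05, and the limma adjusted p of miR-126 was 0.11.

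**Figure D3:**
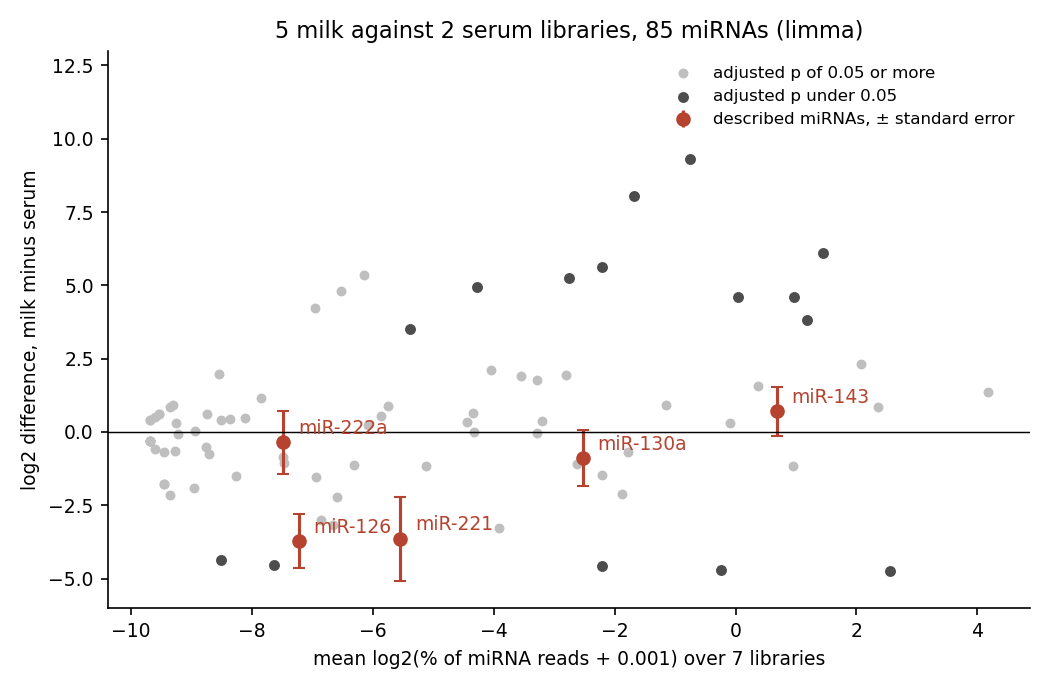
Log2 difference of milk minus serum (vertical axis) against the mean log2 level (horizontal axis) of 85 miRNAs in the fit of 5 milk and 2 serum libraries, with dark points for an adjusted p under 0.05. The 5 described miRNAs are drawn with their standard error, and miR-126 and miR-221 lie at -3.72 and -3.65, below the other 3.

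White cell and platelet markers were also higher in serum. The 4 markers of white cells and platelets (miR-223, miR-142, miR-150 and miR-155) summed to at most 0.008% in milk and to 0.041% and 0.120% in serum of days 120 and 175. Of these miR-223 held 0.030% and 0.072% of serum and miR-150 0.011% and 0.047%, while miR-142 did not exceed 0.001% anywhere and the entry for miR-155 was empty throughout. The 4 red cell markers overlapped between the fluids, with sums of 0.087% to 0.147% in milk and 0.123% and 0.186% in serum. Among them the entry for miR-486 was empty throughout. MiR-451 held 0.041% and 0.054% of serum, 0.045% of milk of day 175 and at most 0.009% of the other milk libraries. MiR-126 and miR-221 also had their highest milk share on day 175. So had 40.6% of the 64 miRNAs whose highest milk day was counted above. MiR-16, most of each red cell sum, was instead lowest in milk of day 175, with 0.082% against 0.085% to 0.145% on the other milk days. It held 0.081% and 0.131% of serum of days 120 and 175. MiR-144 did not exceed 0.002%, its share in milk of day 175. The part of blood cells in the results for miR-126 and miR-221 was not tested. The 8 epithelial markers summed to between 3.18% and 30.3% in milk and to 1.26% and 1.57% in serum, with the entry named miR-200a empty throughout. Of these miR-375 held 2.405% of milk on day 35, 25.8% on day 250, and 1.20% and 1.49% of serum. MiR-203 held 0.045% and 0.055% of serum, 0.145% of milk of day 175 and at most 0.031% of the other milk libraries. Other names or arms of these markers were not analysed here. Liver miR-122 held between 0.001% and 0.040% of milk, highest on day 35 as for miR-222a, and 0.096% and 0.009% of serum, and its part in the result for miR-222a was not tested. The 3 muscle markers summed to at most 0.004% in milk and to 0.017% and 0.004% in serum.

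The ratio of a pair of miRNAs within a library does not depend on the total. Among the 10 pairs of the 5 detected miRNAs, the milk and serum ratios did not overlap for 6. This share is near that of all 1225 pairs of the 50 miRNAs above 0 in at least 4 milk and both serum libraries, 55.9%, so the number of such pairs is no result about these miRNAs. The ratio of miR-143 to miR-126 was between 520 and 1385 in the 4 milk libraries with miR-126, against 38.4 and 19.8 in serum of days 120 and 175. The ratio of miR-143 to miR-221 was between 76.8 and 231 in 4 milk libraries, against 9.13 and 8.47. The ratio of miR-143 to each of these miRNAs, both higher in serum, was thus higher in milk, while the share of miR-143 itself overlapped between the fluids. MiR-130a exceeded miR-221 by between 4.59-fold and 18.2-fold in milk, and by 2.03-fold and 2.13-fold in serum. The ratio of miR-221 to miR-126 overlapped between the fluids, with 6.0, 4.0, 9.43 and 4.67 in the 4 later milk libraries and 4.21 and 2.34 in serum. No test is given, as the pairs follow from differences already described.

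Partners cut from a shared transcript differed in share, by amounts that varied between pairs and libraries. MiR-145 was listed at 0.001% in milk and serum of day 175 and at 0 in milk of days 75 and 250, and was absent from the other 3 libraries. MiR-143 exceeded it by 5067-fold in milk of day 175 (3378 to 10135 within rounding) and by 991-fold in serum (660 to 1983). MiR-221 exceeded miR-222a by 3.0-fold, 4.0-fold, 33.0-fold and 9.33-fold in the 4 later milk libraries, and by 35.8-fold and 14.6-fold in serum. On day 35 the order was the reverse, with miR-221 listed at 0. The table also names miR-222, with empty entries throughout, and how reads were assigned between the names miR-222 and miR-222a is not known. Ligation favours some miRNAs over others in small RNA libraries, so a ratio between miRNAs is less certain than that of 1 miRNA between libraries.

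MiR-301, which shares its seed with miR-130a, held 0.036%, 0.046%, 0.015%, 0.017% and 0.004% of milk from day 35 to day 250, and 0.008% and 0.018% of serum. The ratio of miR-130a to miR-301 in the same milk libraries was 1.83, 1.37, 6.40, 17.8 and 128, and in serum 36.3 and 13.8. On day 250 miR-130a was at its highest in milk and miR-301 at its lowest.

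**Figure D4:**
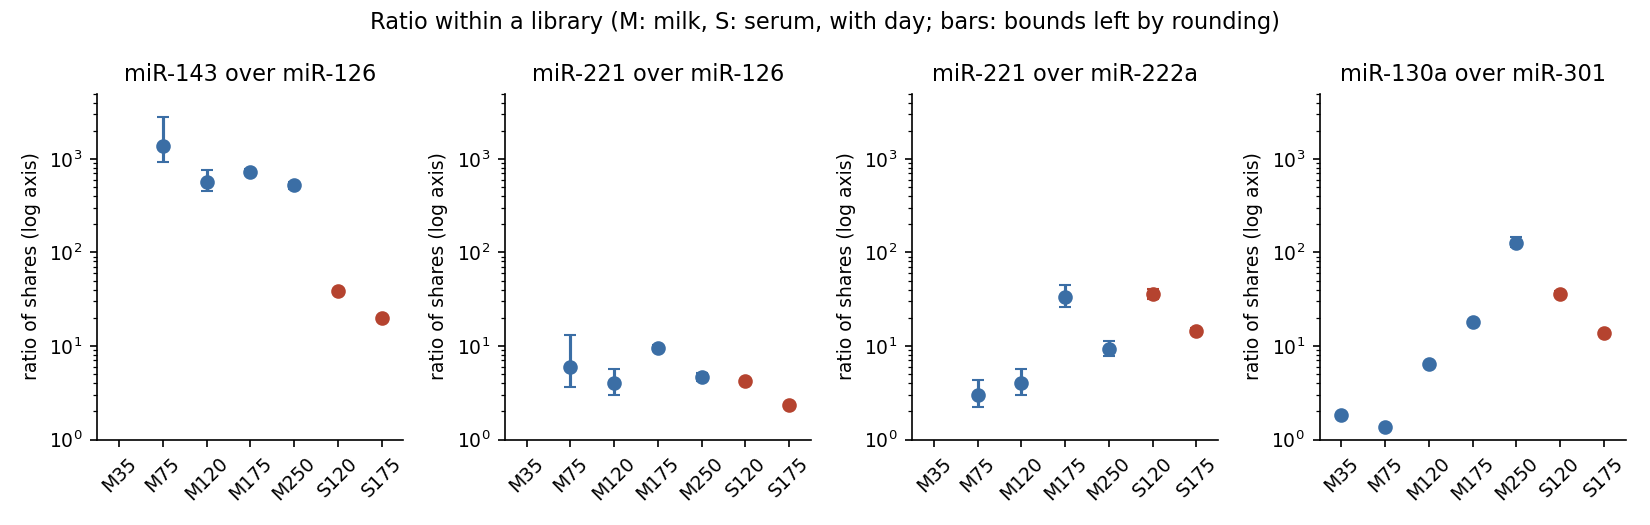
Ratio of shares within a library (vertical axis, log scale) for 4 pairs of miRNAs in milk (M, blue) and serum (S, red) by day of lactation, with the bounds left by rounding and no point where a miRNA was at 0 or absent. The ratio of miR-143 to miR-126 lies at 520 and above in milk and at 38.4 and below in serum, and that of miR-130a to miR-301 reaches 128 in milk of day 250.

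A list of 32 other miRNAs known from vessels or stroma held 17 that were listed in at least 1 library and 15 whose entries were empty in all 7, among them miR-24, miR-199a, miR-222, miR-424 and miR-503. In the fit of all libraries 14 of the list were tested, 1 was called as higher in milk and 0 as higher in serum by limma, and 1 had an unadjusted p under 0.05. Over the 85 miRNAs 11.8% were called as higher in milk and 7.06% as higher in serum, and 28 had an unadjusted p under 0.05. The median log2 difference of the 14 was 0.39, against 0.29 over the 85. The one called was miR-26, a widely expressed miRNA, with a log2 difference of 5.61 and a standard error of 0.87 (limma adjusted p = 0.0017). It held between 0.306% and 1.45% of milk, and 0.005% and 0.029% of serum, without overlap.

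Of the rest of that list, miR-21, known from activated fibroblasts, held 3.04% of milk on day 175, between 0.214% and 0.559% on the other milk days, and 0.375% and 0.212% of serum. MiR-23a, which acts in endothelium, was absent from milk of day 35, held between 0.003% and 0.021% of the later milk, and 0.014% and 0.019% of serum. MiR-27b, of a related cluster, held 0.027% of milk on day 35, between 0.101% and 0.330% afterwards, and 0.235% and 0.328% of serum. MiR-92, which the study lists as enriched in serum, held between 0.849% and 3.22% of milk, and 2.63% and 4.49% of serum. Its log2 difference over all libraries was -1.17 (limma adjusted p = 0.36). The fluids overlapped for each of these miRNAs.

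The miRNAs of most similar course over the 7 libraries were found by the root mean square difference of log2 values, each centred on its mean, among 68 miRNAs of at least 0.005% in a library. For miR-221 the closest was miR-451 (0.59), a red cell miRNA, followed by miR-126 (0.87) and miR-146a (1.0), against a median of 2.54 over the 68. For miR-126 they were miR-125b (0.77), miR-451 (0.83) and miR-221 (0.87), against 2.24. MiR-143 was closest to miR-15a (0.61), miR-21 (0.66) and let-7g (0.71), against 1.62, and miR-130a to miR-29a (0.63), miR-27b (0.78) and miR-143 (0.89), against 1.69. For miR-222a the closest were miR-181b (0.90), miR-92 (0.96) and miR-16 (1.11), against 2.20. All values share the libraries and their totals, and miRNAs of low share move in steps of the rounding. MiR-29a, absent from milk of days 35 and 120 and at most 0.005% elsewhere, is of such low share.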

How the data were processed

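The authors sequenced small RNA from skim milk and serum on an Illumina instrument, trimmed and cleaned the reads, and annotated known miRNAs of miRBase with miRanalyzer. The unit deposited by the authors is percent, the reads of a miRNA over all annotated miRNA reads of the library. Per-sample columns left unused numbered 0. Absent entries were taken as 0. Percent values are not counts, so limma on log2 of percent plus 0.001 was used, with Benjamini-Hochberg adjustment over all miRNAs tested, after a run on simulated data. Milk and serum of days 120 and 175 came from the same females according to the study, and a fit with day as a block was added, although the changes in both fluids correlated at only -0.12 over 75 miRNAs. Tools were R 4.3.3, limma 3.58.1, Python 3.11.15, numpy 2.4.6, pandas 2.3.3 and matplotlib 3.10.9.

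The miRNAs described, the other list and the markers were chosen with earlier results of these data known. Named miRNAs are these and, for each of the 5 detected, the 3 of most similar course. Alternatives were added constants of 0.01 and 0.0005, filters of any value above 0 or of 0.005%, miR-10b or both miR-10b and miR-191 removed from the total, the centred log ratio, the block, and each library left out. The pairs plotted were picked after their values were seen. Sequences and genome positions of the miRNAs were not analysed here.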

Additional observations from a re-analysis of the deposited data

Results flagged for a closer look

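The share of miR-222a in milk of day 35, 0.035%, stood apart from the other 4 milk libraries, with a gap to the next value of 0.970 of the whole range, against Dixon's limit of 0.71 for 5 values. Chance alone places about 1 in 20 such groups past this limit, and the 5 milk libraries are of different days and not replicates.

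The milk to serum ratio of miR-143 was 0.876 on day 120 and 5.11 on day 175, and that of miR-130a was 0.331 on day 120 and 1.22 on day 175. Each pair of ratios lay on opposite sides of 1, and the difference between days was not tested, with 1 library per fluid and day. On the log2 scale that of miR-143 went from -0.19 to -1.84, -1.26 and -0.61 on day 120, and from 2.35 to 1.24, 0.83 and 0.88 on day 175, without miR-10b, without both miR-10b and miR-191 and on the centred log ratio. That of miR-130a on day 175 was below 1 under each of these 3 changes of the total, so that its ratios then lay on the same side.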

How the results depend on the processing

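Between the fluids of days 120 and 175, 14 miRNAs were called, 27 on the centred log ratio, 0 with the day as a replicate block and 0 with each library left out in turn, where 13 to 23 had an unadjusted limma p under 0.05 and a lone library is assumed to vary like the other fluid. Of the described miRNAs 0 were called. The number was 1 with 0.01 added, with the 0.005% filter, without miR-10b and without both abundant miRNAs in the total. It was 2 on the centred log ratio. In that order these settings called 17 of 75, 17 of 55, 15 of 74, 17 of 73 and 27 of 75 miRNAs in all. Of the other list 1 was called, and 0 with the replicate block or with any 1 library left out. Over all libraries 16 were called, 25 on the centred log ratio, and 9 to 18 with 1 library left out, the 9 without serum of day 175. They split into 10 higher in milk and 6 in serum, but 8 and 16 without miR-10b, 8 and 13 without both and 8 and 17 on the centred log ratio. At the matched days the split was 11 and 3, but 9 and 6, 10 and 7, and 12 and 15 in that order. Of the described miRNAs 1 was called over all libraries, 2 under each change of the total, and 0 to 1 with 1 library left out. Without miR-10b, without both and on the centred log ratio, 24 of 84, 21 of 83 and 25 of 85 miRNAs were called over all libraries. Of the other list 1 was called, and 2 without miR-10b.

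The log2 difference of miR-143 at the matched days was 1.08, but -0.30 without miR-10b, -0.22 without both and 0.13 on the centred log ratio, and 0.0080 to 2.15 with 1 library left out, without milk of day 175 and of day 120. Over all libraries it was 0.70, but -0.69, -0.62 and -0.53 without miR-10b, without both and on the centred log ratio. That of miR-130a at the matched days was -0.65, but -2.03, -1.95 and -1.60 in the same order of totals. With 1 library left out it was -1.48 to 0.17, the 0.17 without milk of day 120. Over all libraries it was -0.89, but -2.28, -2.22 and -2.12 in that order of totals. That of miR-222a over all libraries was -0.36, 0.00080 with 0.01 added, and -1.06 to 0.063 with 1 library left out, the 0.063 without serum of day 175. The log2 milk to serum ratio of miR-130a on day 175 was 0.28, but -0.82, -1.24 and -1.19 in the same order of totals. These changes of the total move the median log2 difference over all libraries from 0.29 to -0.67, -0.83 and -0.94. With 1 library left out the exact permutation p of miR-126 was 0.067 to 0.17, the smallest that fewer arrangements allow. MiR-126 and miR-221 had a lower mean in milk under every alternative run. Values of 0.001% to 0.003% are limited by the rounding.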
